A study of Homo sapiens with 8 samples.

Results

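The genes described here are the replication-dependent histone genes of the human clusters, which encode the linker histone H1 and the core histones H2A, H2B, H3 and H4. They were taken as every gene whose symbol begins with HIST1H to HIST4H and whose read count averaged at least 10 over the 8 libraries of the series, with the best-covered transcript standing for a symbol that has several. Of 72 such symbols in the tables, 57 met this count minimum, out of 23873 genes in all. They comprised 3 H1, 15 H2A, 17 H2B, 10 H3 and 12 H4 genes, with 41 on chromosome 6, 15 on chromosome 1 and 1 on chromosome 12. Among these symbols the choice used the mean count alone, but the family itself was picked with earlier results of these data known. The members just inside the minimum were HIST1H1T with a mean count of 14.4 and HIST1H3C with 15.6, and those just outside were HIST3H3 with 9.25 and HIST1H3F with 6.25. All 57 averaged 10 or more in vehicle cells, but 54 did so after 5-FU and 53 in every group, so 4 members entered through the groups in which their counts were high.

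Most messenger RNAs end in a poly(A) tail, but those of the replication-dependent histone genes end in a short stem-loop that is bound by the stem-loop binding protein SLBP. Their genes generally lack introns and are transcribed from histone locus bodies organised by NPAT and CASP8AP2. They are expressed mainly while DNA is replicated, when new chromatin needs new histones. When DNA synthesis stops, histone mRNA is rapidly degraded in most cell types.

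The RNA came from HCT-116, an established human colorectal cancer line. Cells in all groups received a first medium for 12 h, were washed with buffered saline and received a second medium for 4 h. Vehicle cells had DMSO in both steps, the 5-FU group had 40 µM 5-fluorouracil and then DMSO, the 3-MB-PP1 group had DMSO and then 2.5 µM 3-MB-PP1, and the combined group had 5-FU and then 3-MB-PP1, with 2 libraries in each group. 5-FU is an antimetabolite whose product blocks thymidylate synthase, and 3-MB-PP1 is a bulky ATP analogue made to inhibit kinases engineered to accept it. The series text names inhibition of CDK7, a kinase of the cell cycle and of transcription, but the labels do not say which kinase allele the cells carried. Total RNA was depleted of rRNA before single-end sequencing, so transcripts without a poly(A) tail were retained. The labels number the libraries of a group and do not say whether they came from separate cultures, so every p-value measures only how far these libraries spread, which may be technical.

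The libraries held 10579229 to 50494811 gene counts, the deepest being replicate 1 of the 3-MB-PP1 group, and log CPM correlated at 0.993 to 0.994 within groups. CPM are counts scaled to library size with TMM in edgeR, and RPKM are the authors' values per transcript length. Of 8 epithelial markers 7 reached 1 CPM, with a summed level of 2755 to 2881 CPM in vehicle cells, 4891 to 4903 after 5-FU, 2891 to 2917 after 3-MB-PP1 and 4284 to 4332 after both. Of 10 markers of fibroblasts, leukocytes and endothelium 3 did so, with a sum of 21.4 to 28.4 CPM and COL1A2 and CDH5 at 0. CDKN1A, the p53 target that encodes the cell cycle inhibitor p21, measured 192 and 198 CPM in vehicle cells and 1585 and 1491 CPM after 5-FU. CDK7 had 79.7 and 83.0 CPM in vehicle cells and 59.9 and 61.8 CPM after 3-MB-PP1. ERCC spike-in sequences took 2.18% to 4.16% of the library totals.

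The classes of histone genes differed in the elements of their promoters, which is why 1 promoter of each class is printed here: that of the member with the highest vehicle RPKM among those with an entry in the RefSeq promoter table (GRCh38.p14). Each runs from 250 bases before to 50 bases after the transcription start and is read on the strand of its gene, namely chr6:26156079-26156378 (+), chr6:27132793-27133092 (+), chr6:26157871-26158170 (+), chr6:26032050-26032349 (-) and chr1:149832407-149832706 (+). Capitals mark matches on either strand to 5 short motifs. The first is the TATA box, spelled TATAAA. The octamer is spelled ATTTGCAT, the CCAAT box by its name, and the AC box, an element known from H1 promoters, AAACACA. The H4 element was searched by its core letters, GGTCC. Matches may overlap, as those of the H4 core and the CCAAT box do in HIST1H3B.
HIST1H1E: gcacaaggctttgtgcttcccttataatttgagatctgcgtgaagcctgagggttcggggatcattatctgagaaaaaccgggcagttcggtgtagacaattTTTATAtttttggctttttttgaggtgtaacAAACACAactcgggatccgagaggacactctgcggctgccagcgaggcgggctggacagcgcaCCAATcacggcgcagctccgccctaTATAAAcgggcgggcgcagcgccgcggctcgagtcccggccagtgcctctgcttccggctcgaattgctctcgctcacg
HIST1H2AG: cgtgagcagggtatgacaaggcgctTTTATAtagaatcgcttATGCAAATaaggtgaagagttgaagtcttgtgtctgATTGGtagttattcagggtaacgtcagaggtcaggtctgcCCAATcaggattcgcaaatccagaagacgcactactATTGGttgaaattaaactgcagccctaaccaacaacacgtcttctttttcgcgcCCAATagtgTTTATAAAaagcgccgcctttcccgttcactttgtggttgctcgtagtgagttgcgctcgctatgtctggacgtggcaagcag
HIST1H2BD: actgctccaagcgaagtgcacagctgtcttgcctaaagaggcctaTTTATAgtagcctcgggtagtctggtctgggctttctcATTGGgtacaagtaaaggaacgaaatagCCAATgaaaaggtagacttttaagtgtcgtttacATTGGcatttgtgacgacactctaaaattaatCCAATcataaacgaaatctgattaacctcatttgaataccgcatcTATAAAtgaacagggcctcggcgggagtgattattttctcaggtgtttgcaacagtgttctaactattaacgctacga
HIST1H3B: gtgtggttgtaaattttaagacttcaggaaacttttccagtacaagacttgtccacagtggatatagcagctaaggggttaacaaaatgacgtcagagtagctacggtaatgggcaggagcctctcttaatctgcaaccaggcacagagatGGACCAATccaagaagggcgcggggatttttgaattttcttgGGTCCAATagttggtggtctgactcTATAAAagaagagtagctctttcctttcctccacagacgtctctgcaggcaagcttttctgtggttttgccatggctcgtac
HIST2H4A: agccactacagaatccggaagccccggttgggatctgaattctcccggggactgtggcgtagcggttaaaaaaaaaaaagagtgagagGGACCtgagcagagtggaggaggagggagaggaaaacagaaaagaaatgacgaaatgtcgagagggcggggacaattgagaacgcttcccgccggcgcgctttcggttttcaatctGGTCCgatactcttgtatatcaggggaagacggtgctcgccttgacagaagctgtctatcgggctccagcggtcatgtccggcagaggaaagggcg

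A promoter entry was found for 51 of the 57 members. CCAAT occurred in all 41 promoters of the H1, H2A, H2B and H3 genes and in 1 of 10 H4 promoters, that of HIST1H4I, against 34.6% of 35116 promoters of the same length. GGTCC had the opposite distribution, in 10 of 10 H4 promoters and 6 of the other 41, against 46.3% of all promoters. The octamer was found in 9 of 14 H2A and 11 of 15 H2B promoters, and in HIST1H3D among the H3 genes, against 1.77% of all promoters. AAACACA was present in all 3 H1 promoters, in HIST2H2AC and in the duplicated pair HIST2H3A and HIST2H3C, against 5.64% of all promoters. TATAAA occurred in 33 of 51, against 11.5%. These are matches of letters and do not show binding, and a window without a match says only that these letters were not in it.

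**Figure D1:**
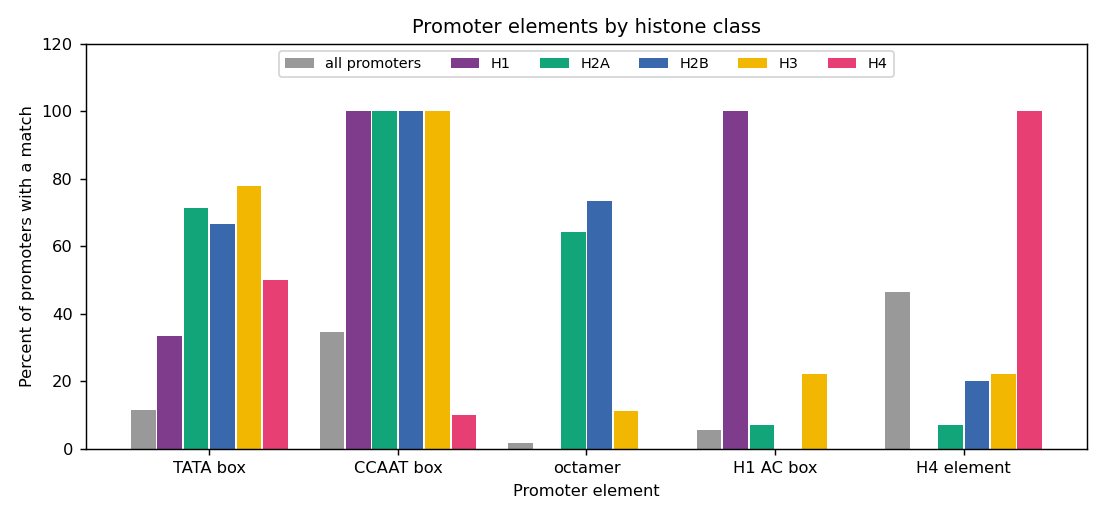
Percent of promoters of 300 bases that hold each element on either strand, for all 35116 RefSeq promoters (grey) and for members of each class (H1 3, H2A 14, H2B 15, H3 9, H4 10). The CCAAT bars reach 100% in every class but H4, while the GGTCC bar reaches 100% in H4.

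At the other end of the transcript, 24 of the 25 members with at least 100 bases of annotated sequence after the stop codon carried a match on the transcript strand to the histone stem-loop, written GGNNNTTNTNANNNCC, against 32 of 18236 other genes (0.175%). With shorter windows included, 27 members had a match, which began 23 to 68 bases after the stop codon. The 16-base stem-loops fell into 6 sequences, and 1 example of each is printed with 4 bases on either side and the stem-loop in capitals. They are transcript sequences of GENCODE v29 on GRCh38, at chr6:27810512-27810535 (+), chr6:26158583-26158606 (+), chr6:27133511-27133534 (+), chr6:26225592-26225615 (+), chr6:26285127-26285150 (-) and chr1:149833028-149833051 (+), all in the 3′ UTR.
HIST1H3H: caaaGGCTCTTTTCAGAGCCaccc
HIST1H2BD: caaaGGCTCTTTTAAGAGCCacgc
HIST1H2AG: caacGGCTCTTTTCAGGGCCaccc
HIST1H3E: caaaGGCTCTTCTCAGAGCCaacc
HIST1H4H: caaaGGCCCTTTTCAGGGCCgccc
HIST2H4A: caaaGGCCCTTTTTAGGGCCgacc

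The sequence of HIST1H3H was shared by 14 members, 5 H2A, 6 H2B and 3 H3 genes. The H2B genes HIST1H2BC, HIST1H2BD and HIST1H2BF shared a second sequence, and HIST1H2AG and HIST1H3E had one each. All 8 matched H4 genes had a stem that begins GGCCC, with the HIST1H4H sequence in 5 and the HIST2H4A sequence in HIST2H4A, HIST2H4B and HIST1H4I. The matched H4 stem-loops thus differed from those of the matched H2A, H2B and H3 genes, while no H1 gene was among the matches. In their promoters, H4 genes differed from the other classes mainly in CCAAT and GGTCC, with HIST1H4I holding both.

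In vehicle cells the members were strongly expressed, with RPKM from 1.61 to 963 (mean of 2 libraries) and a median of 390, and 46 of 57 were above 100 RPKM. The 2 highest were the linker histone genes HIST1H1E, at 927 and 1000 RPKM (hg19 chr6:26156559-26157343, + strand), and HIST1H1C, at 909 and 930 RPKM (chr6:26055968-26056699, - strand). The libraries of these 2 genes overlapped, so their order is not resolved. HIST1H4C followed with 822 and 873 RPKM, below both. The leading genes of the other classes lay close together, with HIST1H3B at 644 and 667, HIST1H2AG at 618 and 683 and HIST1H2BD at 613 and 668 RPKM, and their libraries overlapped. The third H1 member, HIST1H1T, which encodes a testis H1, was the lowest of all at 1.68 and 1.54 RPKM. Median vehicle RPKM was 465 for H2A, 187 for H2B, 370 for H3 and 501 for H4 genes.

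The chromosome 6 members lay in 3 groups of neighbours in hg19, 23 genes within 265 kb from position 26020718, 5 genes within 15.3 kb from 27100095 and 13 genes within 86.4 kb from 27775257. Near-silent genes lay in runs along this cluster. The 15 symbols under the count minimum included 14 on chromosome 6, among them 3 H1 genes: HIST1H1A averaged 2 counts over the 8 libraries, HIST1H1B 1.125 and HIST1H1D 1. HIST1H4F and HIST1H4G had 0 counts in all 8 libraries. Between HIST1H2BG (from 26216428) and HIST1H3G (to 26271612), 8 of 9 neighbouring symbols were under the minimum, the exception being HIST1H3E with 4.52 and 3.35 CPM in vehicle cells. A further run, HIST1H1B, HIST1H3I and HIST1H4L, lay between HIST1H2AL and HIST1H3J.

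Some members cannot be separated by sequence. HIST2H2AA3 and HIST2H2AA4, HIST2H3A and HIST2H3C, and HIST2H4A and HIST2H4B share rows of identical counts, so the 57 symbols are 54 distinct rows. Each pair is listed at 2 places with similar counts, such as 4080 and 4119 for HIST2H2AA3 in replicate 1 of the vehicle group. Only the place with the higher mean count was kept. Reads of the other place are left out of the shares and CPM given here. In 50-base windows of the coding transcripts, 14 of the 55 members with a sequence shared over 50% with another histone gene and 20 shared none. HIST1H4K shared all its windows with HIST1H4J, and their counts (2225 and 2244 in replicate 1 of the vehicle group) were nearly equal, so the split between them is uncertain. HIST1H3D and HIST1H2AD overlap on the same strand, and the span of HIST1H2BK contains HIST1H4I on the other. Reads in those overlaps cannot be assigned with certainty, since whether counting used strand is not known here.

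After 5-FU alone, histone cluster mRNA fell in every class. Members together took 0.931% and 1.00% of the gene counts in vehicle cells and 0.185% and 0.166% after 5-FU. All 57 were lower than vehicle at an adjusted p under 0.05 in edgeR's quasi-likelihood test, where 22.6% of 15714 genes were. In all 57 the 2 groups of libraries did not overlap. Overlap was not counted over all genes, and 2 libraries can lie apart from 2 others without a change. The median log2 fold change was -2.52 (range -3.47 to -1.35), a level 5.72-fold lower, against a median of 0.00 over all genes. The 52 members with a mean count of at least 50, which leave out HIST1H3C and the other 4 lowest, were all called too, with a median of -2.52 and a range from -3.45 (HIST1H3J) to -1.62 (HIST4H4). In bulk RNA, fewer cells in S phase and less histone mRNA per cell cannot be told apart. Of the 7 epithelial markers tested, 5 were called higher, 1 lower and 1 not called after 5-FU, where 21.2% of all genes were higher. CDKN1A rose by 2.98 on the log2 scale. The part of these genes in the histone result was not tested.

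**Figure D2:**
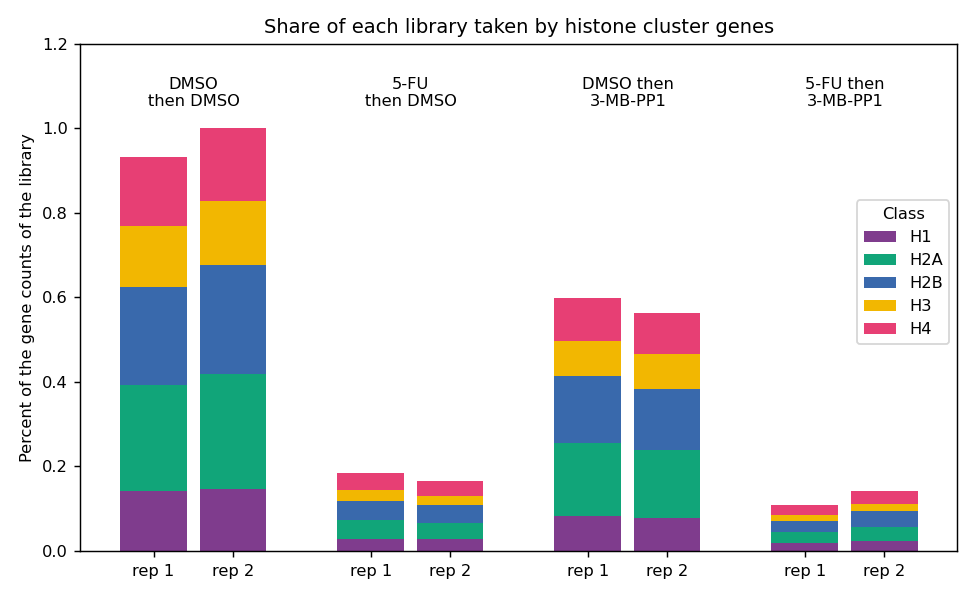
Percent of the gene counts of each library taken by the 54 distinct histone rows, stacked by class, with 1 bar per library. The vehicle bars reach 0.931% and 1.00%, the 3-MB-PP1 bars 0.599% and 0.564%, and the 4 bars of cells that had 5-FU stay at or below 0.185%.

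Among the linker histone genes, HIST1H1E measured 744 and 803 CPM in vehicle cells and 151 and 144 CPM after 5-FU, well below. This was a change of -2.39 on the log2 scale (SE 0.08, edgeR adjusted p = 2.05e-18). HIST1H1C behaved alike, with 680.4 and 697 CPM against 139 and 129.7 CPM (log2 fold change -2.36). The rare HIST1H1T, at 1.25 and 1.14 against 0.461 and 0.420 CPM, had the smallest fall of the class, -1.43 with an SE of 0.45.

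H2A genes had a median log2 fold change of -2.73, the lowest class median. HIST1H2AG, the most abundant per length, went from 315 and 348 CPM to 49.4 and 47.6 CPM. HIST1H2AH had the lowest change of its class, -3.05 (SE 0.09), with 242 and 269 CPM before and 32.5 and 29.3 CPM after. At the other end of the class stood HIST3H2A, an H2A gene of the small chromosome 1 cluster, with 55.9 and 62.8 CPM in vehicle cells and 17.0 and 13.7 CPM after 5-FU (log2 fold change -1.96).

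H2B genes had a median of -2.56. HIST1H2BM showed the largest H2B change, -3.22 (SE 0.11), from 99.7 and 119 CPM to 12.2 and 11.3 CPM. HIST1H2BK showed the smallest, -1.88 (SE 0.07), from 280.0 and 302 CPM to 82.1 and 76.5 CPM. The transcript kept for 2 H2B genes was over 1000 bases long, 2223 bases in HIST2H2BE and 1812 in HIST2H2BF. Their log2 fold changes were -2.43 and -2.58, within the range of the class. The transcripts kept for HIST1H2BK (839 bases) and HIST2H2BA (515 bases) span more of the genome than their length, as spliced forms do. So does that of the H3 gene HIST1H3D (864 bases). HIST1H2BD has a second transcript of this kind, with a mean count of 2694 against 2798 for the one kept.

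Among H3 genes the median was -2.55. HIST1H3J measured 183 and 198 CPM in vehicle cells and 19.6 and 15.4 CPM after 5-FU, or -3.45 on the log2 scale (SE 0.09, edgeR adjusted p = 5.43e-20). HIST1H3B, the most abundant H3 gene per length, went from 311 and 322 CPM to 59.9 and 49.1 CPM (-2.54). The 2 extremes of the class were low genes: HIST1H3C had 22 and 25 reads in vehicle cells and 0 and 5 after 5-FU (-3.47, SE 0.63), and HIST1H3E had the smallest change of all members, -1.35 (SE 0.26).

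H4 genes had the class median closest to 0, -2.17. HIST1H4C went from 328 and 348 CPM to 90.3 and 84.7 CPM, a log2 fold change of -1.95 (SE 0.06). HIST4H4, the single member on chromosome 12 (hg19 chr12:14923654-14924065, - strand), measured 36.5 and 35.8 CPM and then 14.1 and 9.54 CPM (-1.62, SE 0.12). The largest H4 fall was that of HIST1H4H, from 45.7 and 44.1 CPM to 7.76 and 5.58 CPM (-2.76). The composition of histone mRNA shifted accordingly: H4 genes made up 17.2% to 17.4% of member counts in the 4 libraries without 5-FU and 20.8% to 22.5% in the 4 with it. The H1 share was also higher with 5-FU, 15.8% to 16.4% against 13.7% to 15.2% without it. The H2A share was 26.9% to 28.8% without 5-FU and 23.4% to 24.99% with it. These ranges did not overlap, and the shares leave out the second place of each duplicated pair. No test of a difference between classes was made.

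Genes fell in all clusters. With 5-FU alone the median was -2.43 over the 15 chromosome 1 members and -2.56 over the 41 on chromosome 6. The chromosome 1 share of member counts was 20.25% and 20.32% in the vehicle libraries and 21.3% and 21.0% after 5-FU. That share leaves out the second places of the duplicated pairs, which all lie on chromosome 1. Within H2A the medians were -2.59 on chromosome 1 and -2.77 on chromosome 6, and within H2B -2.43 and -2.64. In H4 the order was the other way, -2.27 for the 2 identical chromosome 1 symbols and -2.08 for the 9 on chromosome 6. H2A genes with the octamer in their promoter had a median of -2.68 and those without it -2.73, and H2B genes had -2.58 and -2.42, with overlapping ranges in both classes.

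With 3-MB-PP1 alone most members also fell, with smaller log2 fold changes. They took 0.599% and 0.564% of gene counts after 3-MB-PP1 alone, below both vehicle libraries. Of the 57, 53 were lower in edgeR, against 16.9% of all genes tested, and none was higher, against 11.6%. The median log2 fold change was -0.74 (range -1.09 to -0.21), a level 1.67-fold lower. In 55 members the libraries did not overlap, which was not counted over all genes. With counts scaled to the ERCC spike-ins the median was -0.58 and edgeR called 0 members, with 0 also under an unadjusted p of 0.05, while DESeq2 called 50. The ERCC share of the library totals ranged from 2.18% to 4.16% and differed between libraries of 1 group, from 2.52% to 4.16% in vehicle cells.

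The linker gene HIST1H1E had 422 and 373 CPM after 3-MB-PP1, against 744 and 803 in vehicle cells, a log2 fold change of -0.96 (SE 0.07). HIST1H2AG had 233 and 216 CPM against 315 and 348 (-0.56, SE 0.08), and HIST1H2BD 179 and 157 CPM against 305 and 333 (-0.91, SE 0.08). All 3 groups of libraries lay apart from vehicle. In the H3 class HIST1H3A changed most, with 43.8 and 46.3 CPM against 85.4 and 92.7 (-0.99), and in the H4 class HIST1H4H, with 20.1 and 23.1 CPM against 45.7 and 44.1 (-1.09, SE 0.10). The class medians were -0.83 for H1, -0.66 for H2A, -0.72 for H2B, -0.84 for H3 and -0.81 for H4.

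The 4 members that did not pass with 3-MB-PP1 alone were all low genes of the chromosome 6 cluster. HIST1H1T had 1.053 and 0.940 CPM against 1.25 and 1.14, HIST1H2BB 2.22 and 2.63 against 2.41 and 3.05, HIST1H3C 0.858 and 1.88 against 1.71 and 1.90, and HIST1H3E 2.77 and 3.20 against 4.52 and 3.35 CPM. Their log2 fold changes ran from -0.74 (HIST1H3C, SE 0.38) to -0.21 (HIST1H1T, SE 0.34). The lower ends of their 95% intervals were at -0.73 or below, so whether they responded less than the other members is not resolved. HIST1H4I, which was as low with 3.19 and 4.19 against 2.07 and 2.73 CPM, was called (-0.73, SE 0.24). The smallest change that passed was that of HIST2H2AB on chromosome 1, -0.47 (SE 0.08), from 78.9 and 86.8 to 60.8 and 58.3 CPM. By chromosome the medians were -0.82 for chromosome 1 and -0.74 for chromosome 6, and HIST4H4 had -0.70.

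**Figure D3:**
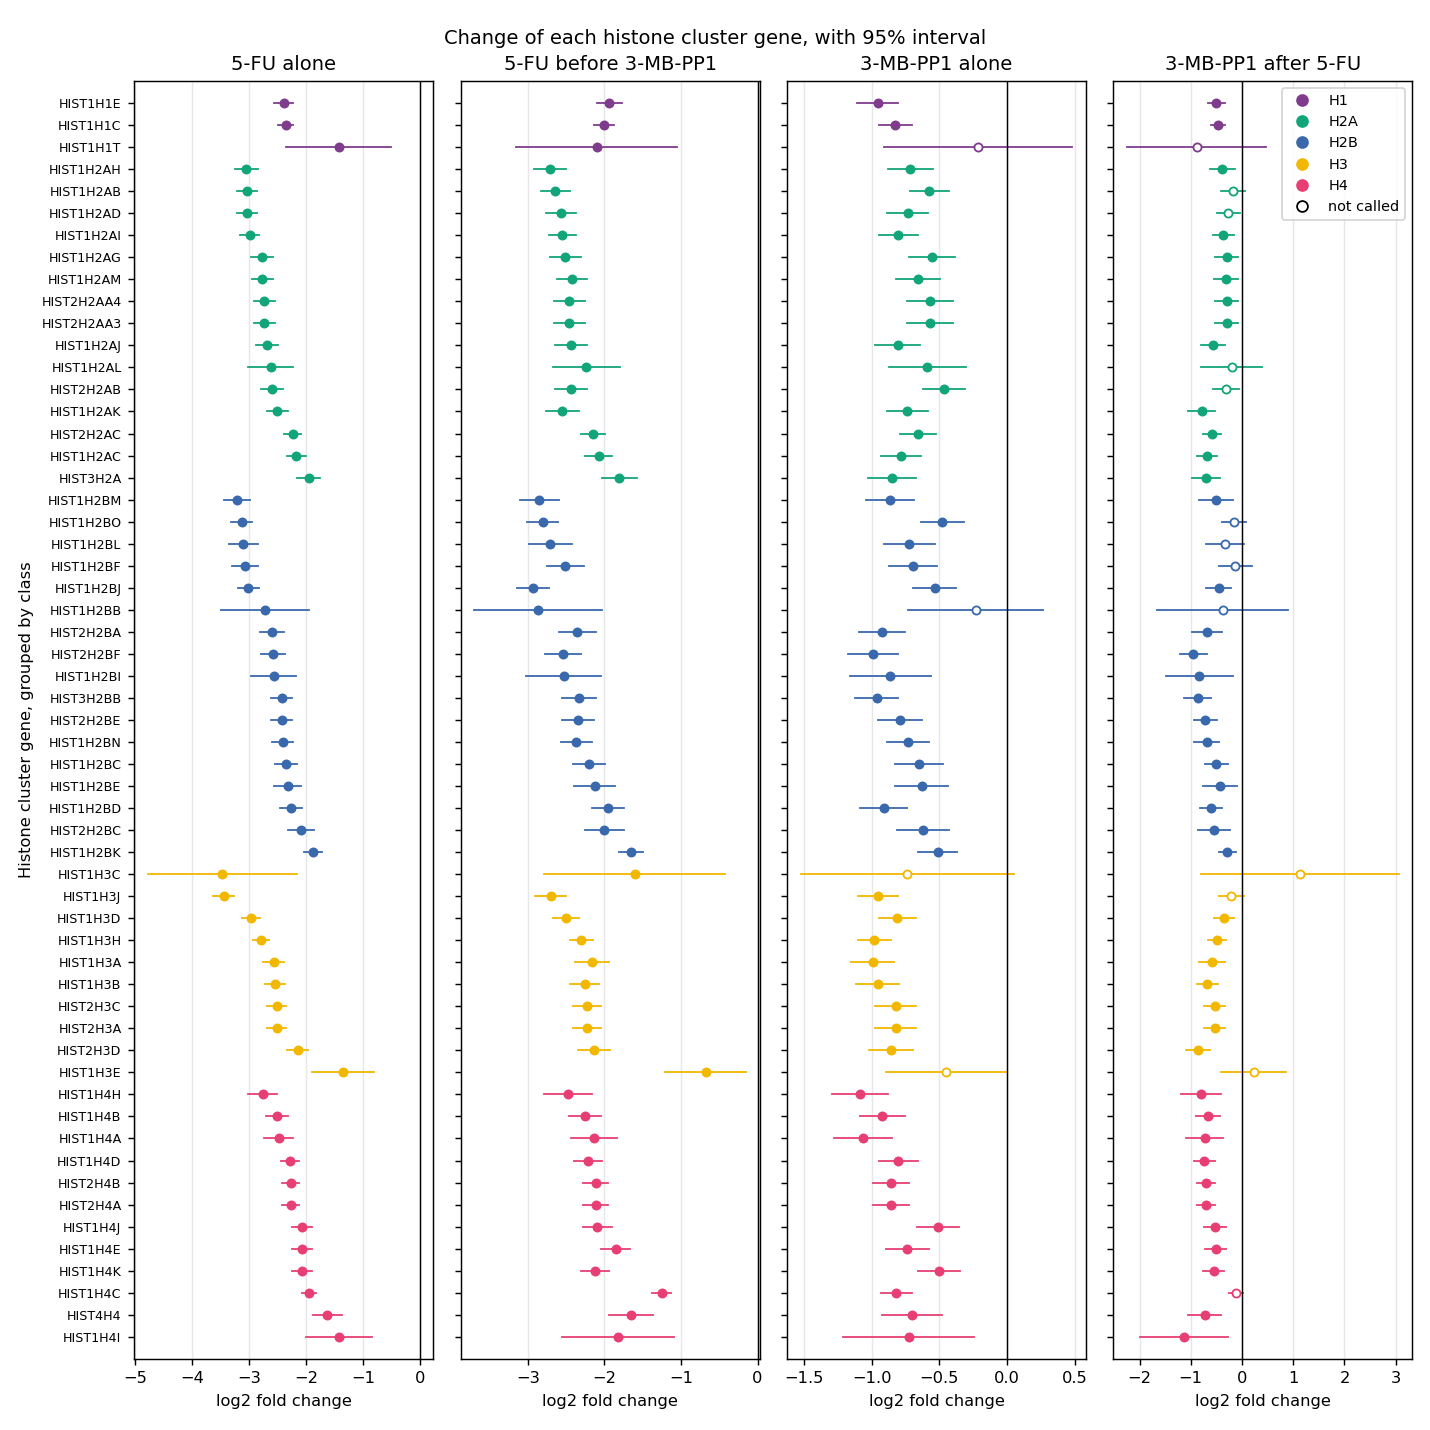
Log2 fold change of each member with its 95% interval in 4 comparisons, grouped by class and ordered within a class by the change with 5-FU alone; filled points were called and open points were not. The x axes differ in range: the 5-FU panels reach beyond -3, whereas the called points of the 3-MB-PP1 panels lie between -1.14 and -0.29.

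When 3-MB-PP1 followed 5-FU, histone mRNA was lower again than after 5-FU alone. Members took 0.109% and 0.141% of gene counts, below the 0.185% and 0.166% after 5-FU, and 44 of 57 were called lower in edgeR, against 17.2% of all genes tested. None was called higher, against 15.7%. The median log2 fold change was -0.53, a level 1.44-fold lower. In 45 members the libraries did not overlap, which was not counted over all genes. The count depended on single libraries, with 28 called without replicate 1 of the combined group and 29 without replicate 1 of the 5-FU group. DESeq2 called 29, and with ERCC scaling the median was -0.64 and edgeR called 0, with 2 under an unadjusted p of 0.05.

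The 2 libraries of the combined group differed in all classes. Replicate 1 was below replicate 2 in 54 of 57 members, with a median ratio of 1.29, compared with 53 of 57 and a ratio of 1.11 between the vehicle libraries in the same order. In the 5-FU group, with which the combined group is compared here, replicate 1 was the higher in 52 of 57 (ratio 0.907). This difference between libraries enters every value given for the combined group, and its source was not tested.

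H4 genes had the lowest class median in this comparison, -0.70, and 11 of 12 were called. HIST1H4D measured 38.1 and 36.9 CPM after 5-FU and 21.7 and 23.4 CPM after both drugs. HIST2H4A had 55.3 and 49.7 CPM and then 28.6 and 36.0 CPM (log2 fold change -0.70, SE 0.09). The lowest change of any member was that of HIST1H4I, -1.14 (SE 0.42), on 23 and 21 reads after 5-FU and 6 and 10 after both drugs.

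H2A genes had the class median closest to 0, -0.31, with 11 of 15 called, and in 6 of the 15 the libraries overlapped. HIST1H2AG had 49.4 and 47.6 CPM after 5-FU and 31.6 and 47.3 CPM after both drugs, apart by a narrow gap (-0.29, SE 0.11, edgeR adjusted p = 0.0396). HIST1H2AB had 18.6 and 15.95 CPM against 13.8 and 16.7 CPM, which overlapped (-0.18, SE 0.11). In H2B and H3 the medians were -0.50 and -0.51, with 13 of 17 and 7 of 10 called. HIST2H2BF, with 44.9 and 42.6 CPM after 5-FU and 17.4 and 27.8 CPM after both drugs, had the lowest H2B change (-0.95, SE 0.13). HIST2H3D had 37.0 and 29.3 CPM and then 16.1 and 20.5 CPM, the lowest H3 change (-0.85, SE 0.11).

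Of the 13 members not called here, 12 were on chromosome 6 and 1, HIST2H2AB, on chromosome 1. They included well-measured genes. HIST1H4C had 90.3 and 84.7 CPM after 5-FU and 77.5 and 83.4 CPM after both drugs, a log2 fold change of -0.12 with a 95% interval of -0.25 to 0.01. HIST1H3J had 19.6 and 15.4 CPM and then 13.3 and 16.9 CPM (-0.21, interval -0.46 to 0.04). HIST1H2BO had 28.5 and 24.8 CPM and then 19.8 and 28.1 CPM (-0.15, interval -0.39 to 0.09). By chromosome, 14 of 15 members on chromosome 1 were called with a median of -0.69, and 29 of 41 on chromosome 6 with a median of -0.48.

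The response to 5-FU was also present in cells that then received 3-MB-PP1. All 57 members were lower in the combined group than after 3-MB-PP1 alone, where 19.8% of all genes were, with a median log2 fold change of -2.25 (range -2.93 to -0.68). Members that entered through groups with high counts were lower partly by that choice. The 53 that averaged 10 or more counts in every group were all lower too. The lowest was HIST1H2BJ, with 165 and 162 CPM after 3-MB-PP1 alone and 17.1 and 25.7 CPM after both drugs. The highest was HIST1H3E, with 2.77 and 3.20 CPM and then 1.58 and 2.01 CPM (-0.68, SE 0.26). Class medians were -2.005 for H1, -2.46 for H2A, -2.37 for H2B, -2.22 for H3 and -2.11 for H4. This comparison and the one with 3-MB-PP1 after 5-FU share the combined group, and both single-drug comparisons share the vehicle libraries. After both drugs the member means ranged from 7.58% to 45.6% of vehicle.

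The interaction asks whether the change with 3-MB-PP1 was the same with and without 5-FU before it. It was called for 8 of 57 members, all higher, against 2.08% of all genes called higher, and for none lower, against 2.0%. In these 8 the change with 3-MB-PP1 was closer to 0 after 5-FU than without it. The median over all members was 0.26, against 0.01 over all genes, and 50 of 57 values were above 0.

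HIST1H3J had the largest called value, 0.75 (SE 0.14, edgeR adjusted p = 0.00222). It fell from 183 and 198 to 96.6 and 101 CPM with 3-MB-PP1 alone, and measured 19.6 and 15.4 and then 13.3 and 16.9 CPM where 5-FU came first. HIST1H4C had the lowest p among members (0.70, SE 0.08, edgeR adjusted p = 8.16e-06), with 328 and 348 falling to 196 and 186 CPM without 5-FU and 90.3 and 84.7 against 77.5 and 83.4 CPM after it. HIST1H3D, also an H3 gene, and its overlapping neighbour HIST1H2AD had 0.46 and 0.47, and their reads cannot be fully separated.

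The other called members were HIST1H3H with 0.50, the linker genes HIST1H1E with 0.46 and HIST1H1C with 0.35, and HIST1H2AI with 0.44. HIST1H3H had 223 and 242 CPM in vehicle cells, 118 and 118 after 3-MB-PP1, 34.2 and 32.6 after 5-FU and 22.6 and 25.2 after both, so the drug lowered it in both settings, by 0.98 and by 0.48 on the log2 scale. All 8 were on chromosome 6, and none of the 15 chromosome 1 members was called (median 0.16). HIST1H3C had a larger value, 1.87, that did not pass (SE 1.01). HIST1H2AI shared 79.7% of its 50-base windows with HIST1H2AJ, so its counts carry that uncertainty. A non-coding transcript annotated to HIST1H3J holds 86.3% of the windows of its neighbour HIST1H2AM. The HIST1H3J transcript counted here does not overlap HIST1H2AM, and 0 of its 362 coding windows were shared.

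This result rested on few libraries. Without replicate 2 of the combined group only HIST1H4C was called and the median was -0.01, and without replicate 1 of that group 18 members were called. Leaving out a vehicle library left 4 and 3 calls, and leaving out replicate 2 of the 5-FU group left 3. DESeq2 called 3, HIST1H3H, HIST1H3J and HIST1H4C. With ERCC scaling edgeR called 0 members, with 0 also under an unadjusted p of 0.05, and the median was -0.04. ERCC scaling moved the median interaction of all genes from 0.01 to -0.31.

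**Figure D4:**
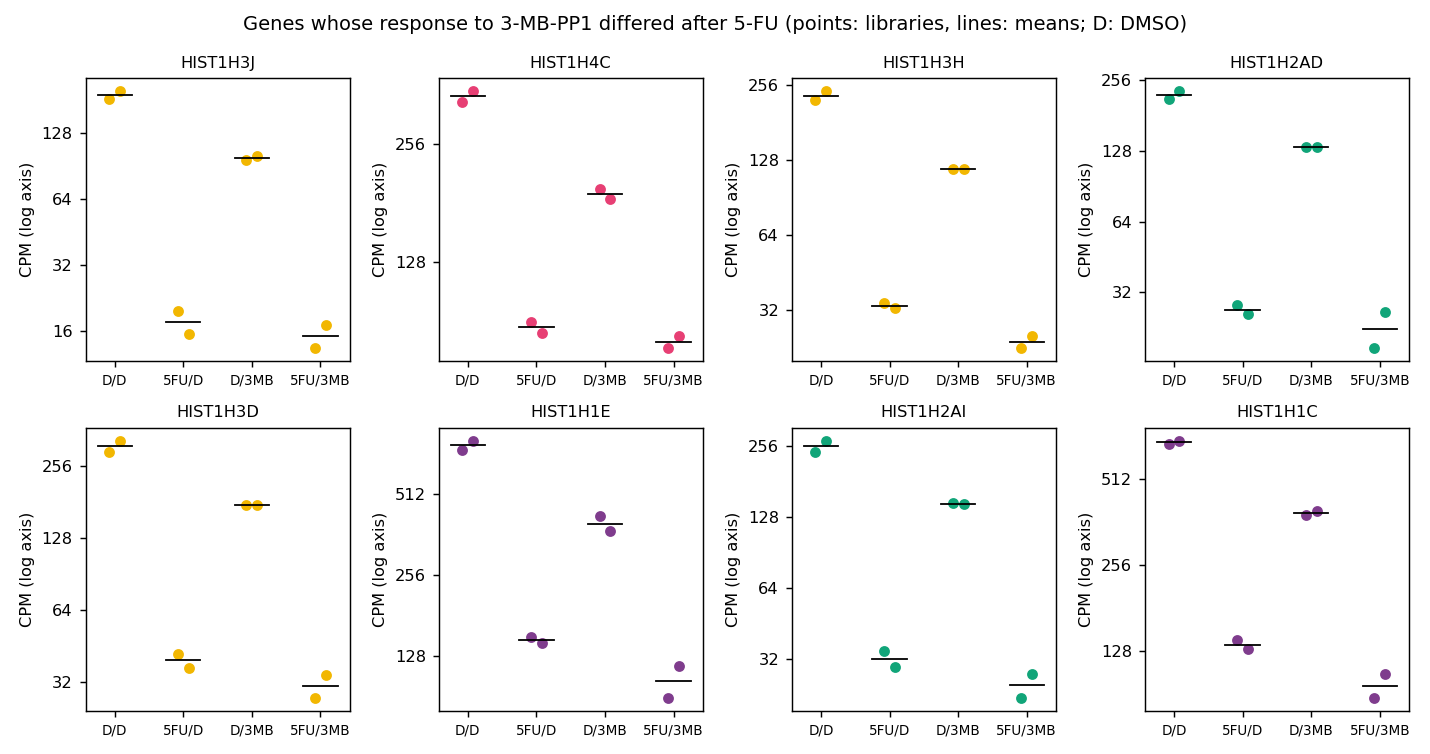
CPM (log axis) in each library for the 8 members whose response to 3-MB-PP1 differed after 5-FU; points are libraries, lines are means, D stands for DMSO and the first label is the first treatment. In HIST1H3J the points after 5-FU and after both drugs overlap, whereas those without 5-FU lie apart.

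Members that were not called for the interaction included some with values near 0. HIST2H3D had 0.01 (95% interval -0.29 to 0.30), HIST1H4J -0.02 and HIST4H4 -0.03. Lowest were 2 low genes, HIST1H1T with -0.67 (SE 0.74) and HIST1H4I with -0.41 (SE 0.49). HIST1H2BF and HIST1H3E had values as high as those of called genes, 0.56 and 0.67, with SEs of 0.18 and 0.38.

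Across the 4 groups the chromosome 1 clusters gave the following levels. The H2A pair HIST2H2AA3 and HIST2H2AA4, counted on 1 place, had 318 and 343 CPM in vehicle cells, 226 and 218 after 3-MB-PP1, 51.5 and 48.0 after 5-FU and 32.1 and 48.6 after both. Its last 2 groups overlapped, although the change was called (-0.30, SE 0.11). HIST2H2AC, an H2A gene beside HIST2H2BE, had 199 and 217, 137 and 123, 44.9 and 43.5 and 27.4 and 31.7 CPM in the same order, without overlap.

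The H3 pair HIST2H3A and HIST2H3C, also on 1 place, had 209.9 and 236 CPM in vehicle cells, 123 and 129.8 after 3-MB-PP1, 42.8 and 35.2 after 5-FU and 24.5 and 29.3 after both. HIST3H2BB, the H2B gene of the small cluster that also holds HIST3H2A, had 81.6 and 91.0, 46.0 and 41.3, 17.3 and 14.8 and 8.07 and 9.49 CPM in that order. In both, each group lay below the one before it.

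HIST2H2BA and HIST2H2BC have non-coding RefSeq accessions and resemble H2B genes. HIST2H2BA lies apart from the other members (hg19 chr1:120906034-120914842, + strand) and had 78.0 and 87.0 CPM in vehicle cells and 13.9 and 13.4 CPM after 5-FU (log2 fold change -2.59). HIST2H2BC (chr1:149821759-149822340, - strand) had 38.8 and 44.0 and 9.87 and 9.72 CPM (-2.08). Both fell as the coding members did, and whether reads of coding genes were counted on them was not tested.

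Genes that make, process and package histone mRNA also changed. Of 48 tested genes of this machinery, 35 fell and 6 rose with 5-FU alone, where 22.6% of all genes were lower and 21.2% higher, with a median of -0.39, so most changes were smaller than those of the histone genes themselves. The few that rose within a role were near or below the share of all genes. Among genes that drive histone transcription, 8 of 11 fell and 2 rose. CCNE2, a cyclin E that activates CDK2, went from 59.1 and 63.7 CPM to 6.25 and 6.72 CPM (log2 fold change -3.24), and E2F1, a transcription factor of the G1/S transition, from 33.0 and 32.5 to 5.72 and 5.46 CPM (-2.55). NPAT, the CDK2 substrate of the histone locus body, went from 59.4 and 67.4 to 25.3 and 26.6 CPM (-1.29), and CASP8AP2 from 63.2 and 59.4 to 21.7 and 22.1 CPM (-1.48). HINFP, which acts on H4 promoters, rose by 0.27 (SE 0.10).

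In 3′ end processing, 9 of 15 tested genes fell and 2 rose. SLBP, which binds the stem-loop printed above, measured 191 and 214 CPM in vehicle cells and 90.7 and 93.4 CPM after 5-FU (-1.13, SE 0.06). LSM10 and LSM11 are both subunits of the U7 small nuclear ribonucleoprotein that guides cleavage, and they went opposite ways, LSM10 rising by 0.72 (SE 0.13) and LSM11 falling by 0.70 (SE 0.14). Of the 9 tested genes of histone mRNA translation and decay, 5 fell and 2 rose. All 13 histone chaperones and deposition factors fell, among them ASF1B (-2.74), CHAF1A (-2.56) and NASP (-1.31).

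With 3-MB-PP1 alone 20 of the 48 fell and none rose, against 16.9% and 11.6% of all genes, with a median of -0.12. CASP8AP2 had 39.1 and 39.2 CPM (-0.65), LSM11 -0.63, ZNF473, the zinc finger protein of the processing complex, -0.63, HINFP -0.62, SLBP -0.37 and NPAT -0.35. When 3-MB-PP1 followed 5-FU, 11 fell and 13 rose, against 17.2% and 15.7% of all genes, so the count that fell was close to that of genes in general. NPAT and SLBP fell further, both by 0.43, LSM11 fell by 0.89 and ZNF473 by 0.88, while CASP8AP2 had 21.6 and 21.8 CPM and a change of -0.02 (SE 0.09). The 7 chaperone genes that rose in this comparison included HAT1 (0.46), ASF1B (0.43) and RBBP4 (0.41).

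Replacement histone genes lie outside the clusters, and most make polyadenylated mRNA outside S phase as well. With 5-FU alone 10 of 12 fell, against 22.6% of all genes, with a median of -0.53, and none rose. Their falls were smaller than the class medians of the cluster genes: CENPA, the centromeric H3, had -1.84, H2AFZ -1.50, H1FX -1.41 and H1F0 -0.82, and H3F3A and H3F3B, which encode H3.3, had -0.36 and -0.23. H2AFJ had 0.04 (SE 0.15). With 3-MB-PP1 alone 8 of 12 fell, against 16.9% of all genes, led by CENPA (-1.05). After 5-FU 3 rose and 3 fell, near the 15.7% and 17.2% of all genes. H2AFZ, for example, had 202 and 188 CPM after 5-FU and 241 and 241 CPM after both drugs, and rose by 0.30 (SE 0.06), in the comparison in which 44 cluster genes fell.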

How the data were processed

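Total RNA was measured in 8 libraries, 2 in each of 4 treatment groups. Reads were aligned with TopHat2 2.0.13 to hg19, per the submitters' processing notes. How reads were counted, with or without strand and on which annotation release, is not given in the sources used here. The deposited tables, per the file headers, held for each of 41643 RefSeq transcripts and 92 ERCC sequences a read count, made by the authors without normalization, and an RPKM, made by the authors by dividing by transcript length and library total. A symbol with several transcripts was represented by the one with most reads on average. Of 6260 transcripts without a symbol, 5902 were matched by accession to RefSeq GRCh38.p14. Starts in the tables count from 0 and were raised by 1.

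edgeR 4.0.16 in R 4.3.3 was fitted to all 8 libraries as 4 groups with filterByExpr (15714 genes), TMM scaling and quasi-likelihood F tests (4 residual degrees of freedom, common biological coefficient of variation 0.0423), two-sided, with Benjamini-Hochberg adjustment over all genes in each of 5 comparisons. Genes under an adjusted p of 0.05 were called. SEs were derived from the F statistics. Fold changes are relative to the other genes. The fit was tested on simulated data. The members, the machinery and replacement lists and the naming rule (class leaders, extremes and exceptions per comparison) were chosen with earlier results of these data known. Not every gene under the rule is printed. Alternatives were DESeq2 1.42.0, its size factors, ERCC scaling, no filter, the shortest transcript, a count minimum of 50, a replicate block and each library left out. Added after seeing the data were the deepest library thinned and TMM without the members.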

Additional observations from a re-analysis of the deposited data

Results flagged for a closer look

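The interaction term compares the change with 3-MB-PP1 after 5-FU with that without it. edgeR called it higher for 8 of 57 cluster genes, against 2.08% of all genes. They were HIST1H3J (0.75), HIST1H4C (0.70), HIST1H3H (0.50), HIST1H2AD (0.47), HIST1H3D (0.46), HIST1H1E (0.46), HIST1H2AI (0.44) and HIST1H1C (0.35, log2 scale). Among the machinery and replacement histone genes it was called for 14. Of the 48 machinery genes tested, 10 were higher and 1 lower, and of the 12 replacement genes 3 were higher. Over all genes 2.08% were higher and 2.0% lower. With ERCC scaling 0 genes were called for the interaction. Higher values were those of CENPA (0.91), CASP8AP2 (0.63), H2AFZ (0.60), MMS22L (0.51), ASF1B (0.50), CDK2 (0.41), HAT1 (0.38), H2AFV (0.37), ZCCHC11 (0.36), NAP1L1 (0.35), RBBP7 (0.31), RBBP4 (0.28) and PRKDC (0.24). CCNE1, a cyclin E, was the single lower one (-0.68). In CENPA, the change with 3-MB-PP1 was -1.05 without 5-FU and -0.15 after it.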

How the results depend on the processing

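With DESeq2 size factors, the shortest transcript, TMM without the members, or no filter on low counts, the calls for 5-FU alone (57) and 3-MB-PP1 alone (53) were the same in number. ERCC scaling gave 53 calls for 5-FU alone and 52 for 5-FU before 3-MB-PP1, and 0 for 3-MB-PP1 alone, 0 for 3-MB-PP1 after 5-FU and 0 for the interaction, whose median became -0.041. It put the median of all genes at 0.13 and 0.19 in the 5-FU and 3-MB-PP1 comparisons with vehicle. Over all genes the calls were 3338 higher and 3558 lower for 5-FU alone, 1823 higher and 2657 lower for 3-MB-PP1 alone, 2470 higher and 2706 lower for 3-MB-PP1 after 5-FU, 3087 higher and 3118 lower for 5-FU before 3-MB-PP1 and 327 higher and 314 lower for the interaction. ERCC scaling gave, in that order, 93 higher and 150 lower, 107 higher and 5 lower, 41 higher and 12 lower, 20 higher and 120 lower and 0 higher and 0 lower. DESeq2 gave, from 3-MB-PP1 alone on, 1021 higher and 1665 lower, 1565 higher and 1816 lower, 2157 higher and 2340 lower and 185 higher and 194 lower. Without a filter on low counts the interaction had 478 lower calls, and it had as few as 87 higher calls without replicate 2 of the combined group and as many as 552 without replicate 2 of the 3-MB-PP1 group. Among members DESeq2 gave 29 calls for 3-MB-PP1 after 5-FU and 3 for the interaction; the cause was not tested. Leaving out each library gave 56 to 57 calls for 5-FU alone, 51 to 54 for 3-MB-PP1 alone, 28 to 47 for 3-MB-PP1 after 5-FU, 55 to 57 for 5-FU before 3-MB-PP1 and 1 to 18 for the interaction. The interaction median ranged from -0.014 to 0.39. It was -0.014 without replicate 2 of the combined group, the only library whose removal put it below 0. In 3-MB-PP1 after 5-FU, HIST1H2BF (-0.13 with all libraries) had -0.39 without replicate 2 of the combined group and 0.068 without replicate 1, and HIST1H2BO (-0.15) had -0.44, which was called, and 0.073. HIST1H3C (-0.74 with 3-MB-PP1 alone) had -1.07, which was called, without replicate 2 of that group and 0.055 without replicate 1. Deviations of same-numbered libraries, taken over all tested genes, correlated at -0.06 to 0.05. This cannot settle whether same-numbered libraries were handled together, since counting noise of low genes enters it. The replicate block gave 57, 53, 44, 57 and 8 calls in the 5 comparisons, as without it. With the deepest library thinned to the shallowest, counts were 57, 52, 43, 55 and 6.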

Other observations

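The 15 cluster symbols under the count minimum were nearly silent in all 4 groups. They were 3 H1, 2 H2A, 3 H2B, 4 H3 and 3 H4 genes, and no library held more than 38 reads of any of them, a count reached by HIST3H3. HIST1H4F and HIST1H4G had no read in any library, which allows at most 0.0255 CPM over the 8 libraries (upper 95% Poisson limit, counting error only). HIST1H1A, HIST1H1B and HIST1H1D encode 3 somatic linker histones, and their mean counts were 2, 1.125 and 1, against 6060 for HIST1H1C. Of the H1 genes outside the clusters, H1F0 had 273 and 279 CPM in vehicle cells and 156 and 156 CPM after 5-FU, when HIST1H1E had 151 and 144 CPM and HIST1H1C 139 and 129.7 CPM. CPM are not scaled to transcript length, so these values do not rank the genes by level.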
